A study of Anser cygnoides with 6 samples.

Results

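The leukaemia inhibitory factor (LIF), JAK, STAT and SOCS genes described here are the rows of the deposited gene table whose gene name is LIF, LIFR, OSMR, JAK1, JAK2, STAT3, STAT5B, SOCS3 or SOCS2. Of these 9 names, 7 had a row of their own among the 14283 genes of the table, and STAT3 and STAT5B did not. The names were picked with this same comparison in view, so their values are given as a description without a test. RNA was measured in 6 cultures of primary myoblasts of the Shitou goose (Anser cygnoides), all of wild-type genotype, with 1 library from each culture. The 3 DM cultures had been switched to medium with 2% horse serum and collected after 3 days according to the methods, or 2 to 4 days according to the sample labels. The 3 GM cultures were collected while they proliferated in the growth medium, which held 15% fetal bovine serum by the labels. The methods give 15% for resuspending the cells, but name a higher percentage as the serum that the horse serum replaced. All cultures came from the leg muscle of embryos incubated for 15 days, whose cells were pooled before being divided. By the methods, the DM cultures were denser when switched than the GM cultures were when collected, and were then kept longer. Serum, cell density and time in culture therefore changed together with the stage, and their parts cannot be told apart. Values are FPKM, fragments mapped to a gene scaled by its length and by the library's total, which allow levels to be compared between genes of different length.

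LIF is a secreted cytokine that binds LIFR, and LIFR then pairs with gp130, the shared receptor chain encoded by IL6ST. Oncostatin M acts through OSMR and the same gp130 chain. The receptors carry the tyrosine kinases JAK1 and JAK2, which phosphorylate STAT transcription factors, and STATs switch on the genes for SOCS proteins, which bind the receptors or kinases and dampen the signal. In cultured mouse and human myoblasts LIF is known to promote proliferation.

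Of the 7 genes, LIF, SOCS3 and SOCS2 were lower in every DM library than in any GM library, OSMR and JAK1 were higher in every DM library, and LIFR and JAK2 overlapped between the stages. Thus 5 of the 7 did not overlap, beside 48.6% of the 10381 genes whose mean reached 0.5 FPKM. DM was lower in 3 of the 7, beside 25.7% of all genes, and higher in 2, beside 23.0%. Nothing is read from these counts, because the genes were picked on this comparison. All 7 passed the filter of 0.5 FPKM, and their median difference of log2(FPKM + 1), DM minus GM, was -0.14, beside -0.03 over all genes tested.

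**Figure D1:**
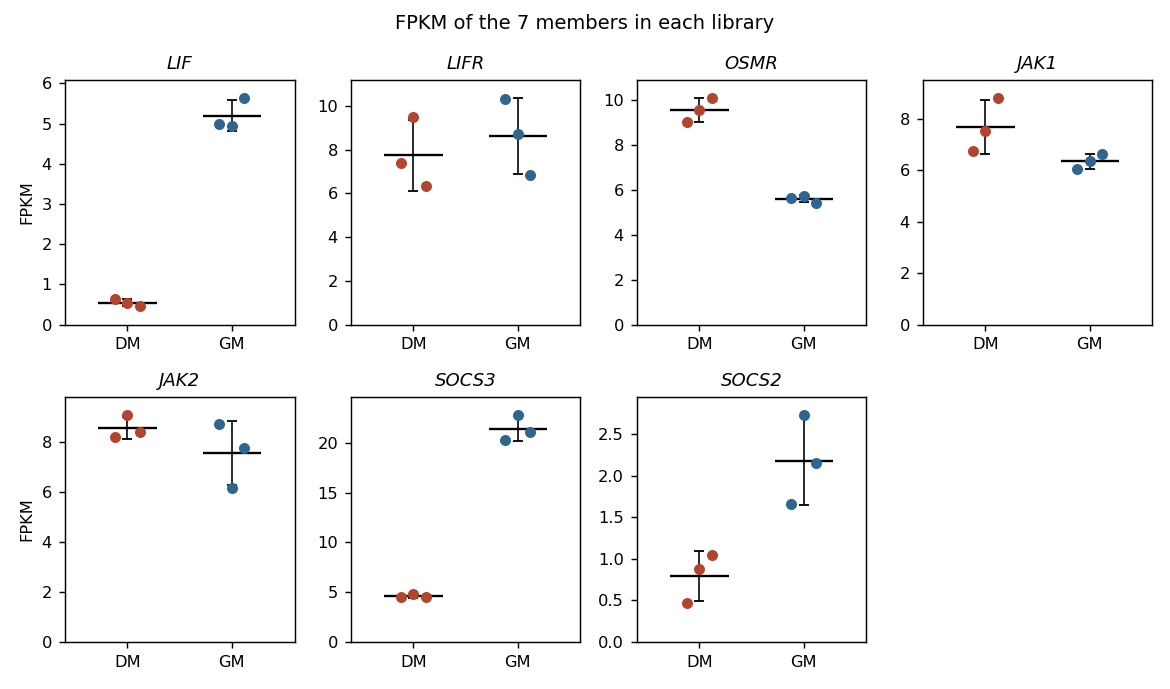
FPKM of the 7 genes in each library, with 1 panel per gene on its own linear scale, DM left of GM. Points are libraries, and the bar with whiskers is the mean and SD of 3 libraries; LIF, SOCS3 and SOCS2 sit lower in DM, OSMR and JAK1 higher, and LIFR and JAK2 overlap.

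LIF, the ligand, had 0.645, 0.533 and 0.464 FPKM in the 3 DM libraries, against 5.00, 4.95 and 5.64 FPKM in the 3 GM libraries. The libraries of each stage lay close together and the stages did not overlap. The means were 0.547 ± 0.0911 FPKM in DM and 5.20 ± 0.386 FPKM in GM (SD, n = 3 each), 9.49-fold lower in DM. The log2 ratio of the means was -3.25 and lay between -3.38 and -3.14 when any 1 library was left out. On the log2(FPKM + 1) scale, which compresses low values, the difference was -2.00. In DM 28.9% of all genes in the table had a lower mean than LIF, and in GM 62.5% did.

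LIFR, the ligand-binding receptor chain for LIF, had 7.39, 9.50 and 6.33 FPKM in DM libraries, against 10.3, 8.71 and 6.84 FPKM in GM libraries. These values overlapped, and the log2 ratio of the means was -0.16. OSMR, the receptor chain for oncostatin M, had 9.01, 9.56 and 10.1 FPKM in DM libraries, against 5.65, 5.74 and 5.43 FPKM in GM libraries. OSMR was thus higher in all DM libraries, with means of 9.55 ± 0.539 FPKM in DM and 5.61 ± 0.163 FPKM in GM (SD, n = 3 each), 1.70-fold higher in DM. The ratio of OSMR to LIFR was 1.22, 1.01 and 1.59 in DM libraries, against 0.547, 0.660 and 0.793 in GM libraries. OSMR therefore exceeded LIFR in every DM library and lay below it in every GM library.

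JAK1, a kinase that binds gp130 and its partner chains, had 6.73, 7.53 and 8.81 FPKM in DM libraries, against 6.04, 6.34 and 6.64 FPKM in GM libraries. The lowest DM library lay just above the highest GM library, and the mean was 1.21-fold higher in DM. JAK2, a kinase also used by the growth hormone and erythropoietin receptors, had 8.20, 9.07 and 8.40 FPKM in DM libraries, against 8.71, 6.16 and 7.76 FPKM in GM libraries. The JAK2 values overlapped, and the log2 ratio of its means was 0.18. The ratio of JAK1 to JAK2 averaged 0.900 ± 0.129 in DM and 0.859 ± 0.168 in GM (SD, n = 3 each), a difference smaller than the spread in either stage.

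STAT3, the main STAT downstream of gp130, appeared only in a joined row that the table names PTRF;STAT3, so its reads cannot be told apart from those of PTRF, which encodes a coat protein of caveolae. The joined row had 27.3, 26.4 and 28.2 FPKM in DM libraries, against 40.0, 41.4 and 41.1 FPKM in GM libraries. All DM libraries were lower, with a log2 fold change of -0.56 (SE 0.05), but no value can be given to STAT3 alone. STAT5B was not found by name. A row with a LOC identifier, LOC106047991, which the table describes as STAT5A-like, had 13.3, 18.0 and 17.8 FPKM in DM libraries, against 12.1, 12.3 and 11.9 FPKM in GM libraries, with an adjusted p of 0.0526 by limma.

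SOCS3, the inhibitor that binds gp130 and blocks JAK kinases, had 4.50, 4.81 and 4.52 FPKM in DM libraries, against 20.3, 22.8 and 21.1 FPKM in GM libraries. The stages lay far apart relative to the spread within each. The means were 4.61 ± 0.174 FPKM in DM and 21.4 ± 1.26 FPKM in GM (SD, n = 3 each), 4.65-fold lower in DM, and the log2 ratio of -2.22 lay between -2.25 and -2.17 when any 1 library was left out. SOCS3 exceeded 60.0% of all genes of the table in DM and 90.5% in GM. The ratio of SOCS3 to LIF was 6.97, 9.03 and 9.74 in DM libraries, against 4.07, 4.61 and 3.75 in GM libraries, so the ratio of the means differed less between the stages for SOCS3 than for LIF. On the log2(FPKM + 1) scale the differences of both were -2.00.

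SOCS2, the inhibitor best known for limiting growth hormone signalling, had 0.467, 0.877 and 1.05 FPKM in DM libraries, against 1.66, 2.73 and 2.16 FPKM in GM libraries. All DM libraries were lower, but SOCS2 was the gene of the 7 whose libraries spread most, with the highest DM library more than 2 times the lowest. The means were 0.797 ± 0.298 FPKM in DM and 2.18 ± 0.537 FPKM in GM (SD, n = 3 each), 2.74-fold lower in DM, with a log2 ratio of -1.45 that lay between -1.70 and -1.18 when any 1 library was left out.

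The order of the levels differed between the stages. In DM the mean FPKM ran, high to low, in the order OSMR, JAK2, LIFR, JAK1, SOCS3, SOCS2 and LIF, and the neighbours among the first 4 overlapped, as did SOCS2 and LIF. In GM the order was SOCS3, LIFR, JAK2, JAK1, OSMR, LIF and SOCS2. SOCS3 stood above all the others there without overlap, the neighbours from LIFR to JAK1 overlapped, OSMR overlapped LIF, and SOCS2 lay below LIF in every GM library.

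**Figure D2:**
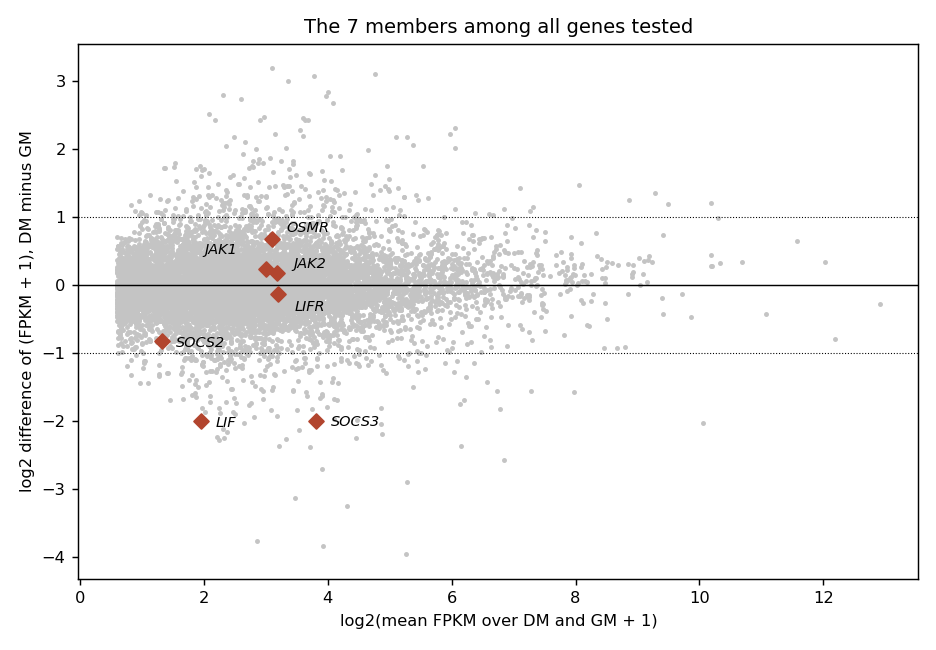
Difference of log2(FPKM + 1), DM minus GM, of each tested gene against its mean level over DM and GM on a log2 scale. Each gene is 1 grey point, the 7 genes are marked, and the solid horizontal line shows equal levels. LIF, SOCS3 and SOCS2 lie below this line, OSMR lies above it, and JAK1, JAK2 and LIFR lie near it.

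Among the 10381 tested genes ranked by their log2 difference from the lowest, LIF was at rank 24, SOCS3 at rank 25 and SOCS2 at rank 383. OSMR was at rank 640 from the highest. LIF and SOCS3 were the 2 of the 7 with a difference of more than 1 on the log2(FPKM + 1) scale, beside 4.72% of all genes in either direction and 2.25% below -1. With the limits on adjusted p and fold used for the pathway genes, 4.02% of all genes were called in either direction.

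The remaining SOCS family genes were tested with limma over all genes, with Benjamini-Hochberg adjustment. A tested gene is said below to have risen or fallen at an adjusted p under 0.05, and to have been called higher or lower where its log2 fold change also exceeded 1. Of all tested genes 14.7% rose and 15.5% fell by this measure. CISH, which dampens STAT5 signals, had 10.96, 9.93 and 8.60 FPKM in DM libraries, against 19.7, 20.0 and 20.2 FPKM in GM libraries. It fell in DM with a log2 fold change of -0.96 (SE 0.09) and an adjusted p of 0.00118 by limma. SOCS1, an inhibitor of interferon receptor signalling, averaged 1.95 ± 0.263 FPKM in DM and 4.30 ± 0.451 FPKM in GM (SD, n = 3 each) and fell with a log2 fold change of -0.85 and an adjusted p of 0.00274 by limma. Both stayed short of the fold limit on the log2(FPKM + 1) scale, while both were called lower with a pseudocount of 0.1, at -1.02 for CISH and -1.10 for SOCS1, and CISH was also called lower without DM replicate 1. SOCS4, SOCS5, SOCS6 and SOCS7 did not pass the test, with adjusted p-values by limma of 0.539, 0.621, 0.648 and 0.0887. SOCS7 had 4.44, 4.10 and 4.64 FPKM in DM libraries, against 5.41, 5.13 and 5.11 FPKM in GM libraries, which do not overlap but lie close. SOCS4 had 4.46, 0.662 and 0.294 FPKM in DM libraries, against 2.01, 1.61 and 3.06 FPKM in GM libraries, so the DM libraries of this gene did not give 1 level.

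SOCS1, SOCS2, SOCS3 and CISH together came to 17.6, 17.8 and 16.2 FPKM in DM libraries, against 45.8, 50.4 and 47.5 FPKM in GM libraries. SOCS4 to SOCS7 together came to 19.9, 15.1 and 10.7 FPKM in DM libraries, against 18.1, 16.6 and 17.2 FPKM in GM libraries. The first sum could not overlap between the stages, because each of its genes was lower in every DM library. The second sum overlapped, and SOCS4 and SOCS5 within it scattered in DM. This grouping was chosen after the values were seen and has no test.

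**Figure D3:**
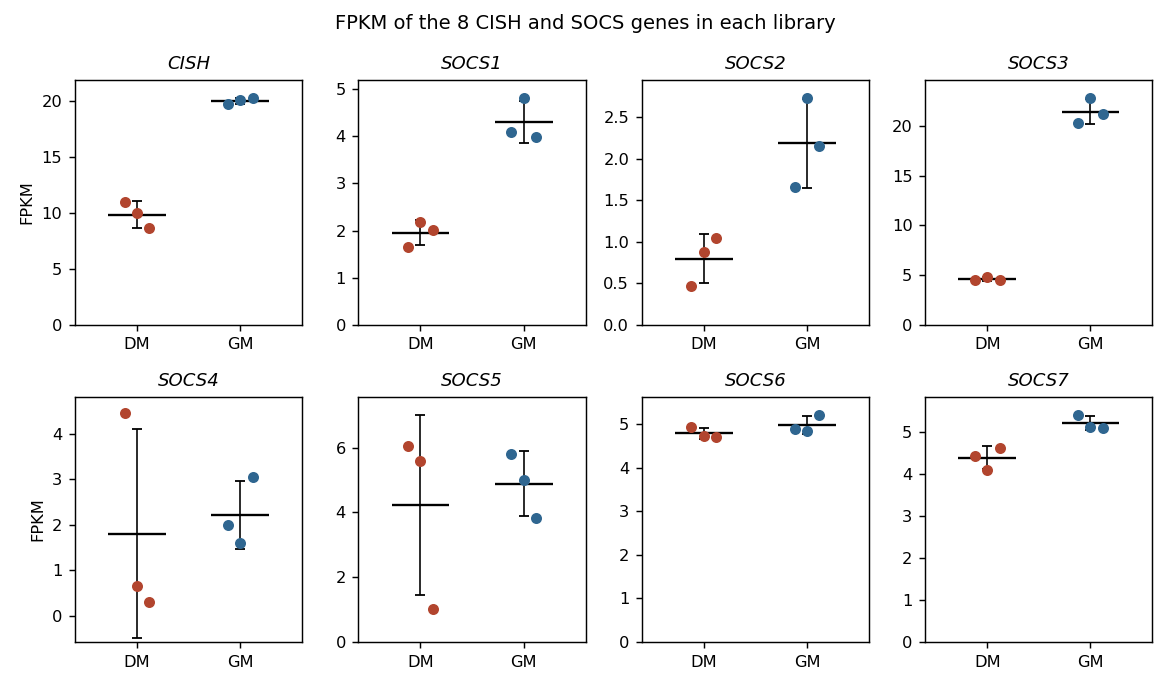
FPKM of the 8 SOCS family genes in each library, 1 panel per gene on its own linear scale, DM left of GM, with points for libraries and the mean and SD of 3 libraries. SOCS3, SOCS2, SOCS1, CISH and, by less, SOCS7 are lower in all DM libraries, while SOCS4 and SOCS5 scatter within DM.

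Other genes of the pathway were taken from lists of ligands, receptors, kinases, STATs, inhibitors, adaptors and targets that held 148 genes. Of these, 88 had a row of their own, 59 passed the filter, 8 appeared only in joined rows and 6 were listed at 0 in all libraries. Genes were matched by name, so rows with a LOC identifier whose description matches a listed gene are not in these counts. By limma with an adjusted p under 0.05 and a log2 fold change over 1, 2 of the 59 were called lower in DM and 0 higher, beside 1.84% of all tested genes lower and 2.18% higher. Without the fold limit, 15 fell, which is 25.4% of the 59 beside 15.5% of all tested genes, and 4 rose, which is 6.78% beside 14.7%. Among those that fell, IL2RA and PTPRC averaged under 0.5 FPKM in DM. They passed the filter through GM alone, so they entered the count only because GM was high. The median log2 fold change of the 59 was -0.15, beside -0.03 over all genes tested. The lists were chosen with earlier results of these data known. Their shares and median are therefore a description and no independent test of the pathway. The count of 2 became 5 without DM replicate 1, 1 without either GM replicate 2 or GM replicate 3, and 8 with a pseudocount of 0.1. The shares of all genes called under these alternatives are not given here, so the changed counts are not read as a result about the pathway.

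**Figure D4:**
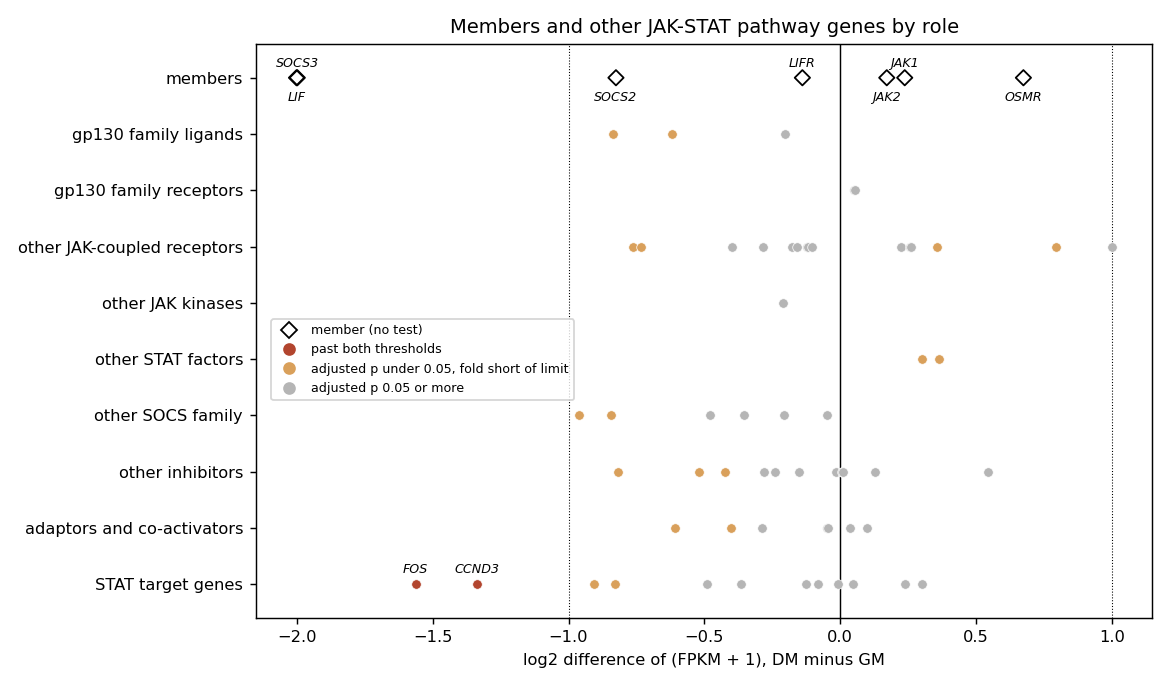
Difference of log2(FPKM + 1), DM minus GM, for the 7 genes (diamonds, no test) and the 59 tested pathway genes (circles) by role, with dotted lines at the fold limit. Among the circles FOS and CCND3 alone lie past both thresholds, at -1.56 and -1.34.

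The 2 called lower were listed as STAT targets. Of the 12 listed targets tested, 4 fell, which is 33.3% beside 15.5% of all tested genes. Of the rest, 0 rose and 8 did not pass. PIM1, a further listed target, had no row by name, and the row LOC106046136, which RefSeq names PIM1, was also called lower, as given below. MCL1 had no row by name either, and LOC106029353, described as its homolog, fell at a log2 change of -0.47 (adjusted p = 0.00407 by limma). CCND2, another listed target, appeared only in the joined row TIGAR;CCND2, so it has no value alone. That joined row went the other way and rose at a log2 change of 0.65 (adjusted p = 0.0147 by limma). FOS, a subunit of the AP-1 transcription factor and a gene known to respond quickly to serum, had 5.32, 4.83 and 3.34 FPKM in DM libraries, against 14.0, 14.5 and 16.7 FPKM in GM libraries. Its log2 fold change was -1.56 (SE 0.16, adjusted p = 0.00135 by limma), and the stages lay well apart. CCND3, the cell cycle regulator cyclin D3, had 2.53, 1.58 and 4.79 FPKM in DM libraries, against 8.16, 8.54 and 8.74 FPKM in GM libraries. Its log2 fold change was -1.34 (SE 0.28, adjusted p = 0.0165 by limma), and the adjusted p was 0.0522 without GM replicate 2 and 0.0539 without GM replicate 3. FOSL2, another AP-1 subunit and the target with the highest mean over all 6 libraries, averaged 68.3 FPKM in DM and 128.9 FPKM in GM and fell at a log2 change of -0.91 (adjusted p = 0.000341 by limma). PIM3, a serine/threonine kinase, averaged 13.6 FPKM in DM and 24.9 FPKM in GM and fell at a log2 change of -0.83 (adjusted p = 0.00105 by limma). MYC, a growth-promoting transcription factor, and BCL2L1, which encodes the survival protein Bcl-xL, did not pass the test, at adjusted p-values of 0.161 and 0.951 by limma.

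Of the 3 gp130 family ligands measured beside LIF, 2 fell and 0 were called past the fold limit. IL6, a cytokine made by many cell types including muscle, averaged 0.701 ± 0.150 FPKM in DM and 2.04 ± 0.275 FPKM in GM (SD, n = 3 each), at a log2 fold change of -0.84 (adjusted p = 0.00260 by limma). The values of this IL6 row equal those of an assembled transcript that the authors also listed as long noncoding. The level of coding IL6 RNA is therefore not known separately. CLCF1, which signals through the ciliary neurotrophic factor receptor and had the highest mean of the 3, averaged 1.29 FPKM in DM and 2.53 FPKM in GM, at a log2 change of -0.62 (adjusted p = 0.0289 by limma). EBI3, a subunit of interleukin 27, did not pass, at 1.12 FPKM in DM and 1.47 FPKM in GM. Of the other JAK-coupled ligands, 11 had a row and 0 passed the filter, and PRL, IL12A, IL22, IL26 and IFNG were listed at 0 in all libraries.

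IL6ST, which encodes gp130, had 17.8, 9.45 and 10.01 FPKM in DM libraries, against 8.83, 8.89 and 19.0 FPKM in GM libraries. In each stage 1 library stood at about 2 times the others, so the stages overlapped, and the log2 fold change was 0.05 with an adjusted p of 0.921 by limma. Of the 15 other JAK-coupled receptors tested, 2 rose, 2 fell and 11 did not pass, which is 13.3% in each direction, near the shares of 14.7% and 15.5% over all genes. With the fold limit 0 were called. IL22RA1, a chain of the interleukin 22 receptor, averaged 2.06 FPKM in DM and 0.754 FPKM in GM and rose at a log2 change of 0.79 (adjusted p = 0.00567 by limma). IFNGR2, a chain of the interferon gamma receptor, rose at a log2 change of 0.36 (adjusted p = 0.0153 by limma), while IL2RA and IL13RA2, receptor chains for interleukins 2 and 13, fell with log2 fold changes of -0.73 and -0.76. IL2RA averaged 0.449 FPKM in DM and 1.41 FPKM in GM, so it passed the filter through GM alone. IL4R, the receptor chain for interleukin 4 and the most abundant of them, had 71.2 FPKM in DM and 77.5 FPKM in GM and did not pass the test (adjusted p = 0.192 by limma).

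STAT6, which acts downstream of the interleukin 4 receptor, averaged 32.7 ± 2.00 FPKM in DM and 25.2 ± 0.399 FPKM in GM (SD, n = 3 each) and rose at a log2 change of 0.36 (adjusted p = 0.00854 by limma). All DM libraries of STAT6 lay above all GM libraries, and the change stayed short of the fold limit. TYK2, a further JAK kinase, had 5.87 FPKM in DM and 6.95 FPKM in GM and did not pass (adjusted p = 0.101 by limma). Among the other inhibitors, CBL, CBLB and PTPRC fell, short of the fold limit, and 8 had an adjusted p of 0.05 or more, including PTPN11, the most abundant of them, which encodes the phosphatase SHP2 (adjusted p = 0.195 by limma). CBL and CBLB encode ubiquitin ligases that act on receptors, and PTPRC encodes CD45, a phosphatase of blood cells. PTPRC averaged 0.380 FPKM in DM and 0.977 FPKM in GM, so it too passed the filter through GM alone. Among adaptors SH2B2 and STAM fell, short of the fold limit, and 5 had an adjusted p of 0.05 or more, including the most abundant, GRB2 (adjusted p = 0.273 by limma).

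The annotation column of the gene table gives a second, wider view. Apart from the 7 genes it assigns 155 rows to JAK-STAT signalling, of which 104 were tested, and 2 were called higher and 2 lower by limma. That is 1.92% in each direction, beside 2.18% of all tested genes called higher and 1.84% called lower. This annotation shares 69 genes with the lists above and is not independent of them. It also holds rows described as other proteins, such as an ovomucoid-like protein and aldehyde oxidase, so its shares do not cover JAK-STAT genes alone. CDKN1A, the cyclin-dependent kinase inhibitor p21, had 17.2, 19.3 and 18.5 FPKM in DM libraries, against 1.94, 3.43 and 3.85 FPKM in GM libraries, and rose at a log2 change of 2.28 (adjusted p = 0.000776 by limma). PIK3R3, a regulatory subunit of phosphoinositide 3-kinase, had 9.23, 8.80 and 7.90 FPKM in DM libraries, against 4.09, 3.45 and 3.001 FPKM in GM libraries, and rose at a log2 change of 1.10 (adjusted p = 0.00148 by limma). CCND3 was 1 of the 2 called lower. The other was LOC106046136, whose gene ID RefSeq names PIM1, with 13.8, 13.2 and 12.02 FPKM in DM libraries, against 25.8, 30.1 and 28.2 FPKM in GM libraries, and a log2 fold change of -1.05 (adjusted p = 0.000616 by limma). The number called lower was 5 without DM replicate 1 and 9 with a pseudocount of 0.1, again without a share of all genes beside it. It was 1 without DM replicate 3 (CCND3), without GM replicate 3 (LOC106046136) and without GM replicate 2. In the last case both lost their call and a different gene was called, LOC106048697, which is described as a type II keratin. Over all libraries LOC106048697 averaged 0.275 FPKM in DM and 1.27 FPKM in GM, so it passed the filter through GM alone.

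LIF and SOCS3 were compared with the 5503 genes of at least 5 FPKM on average for their pattern over the 6 libraries. For LIF the highest Pearson r of log2(FPKM + 1) was 0.9991 with RAB11A, then 0.999 with TNFRSF6B and 0.999 with FOSL2. For SOCS3 it was 0.9993 with POLR3A, then 0.9989 with the joined row PLEKHA3;DFNB59 and 0.9987 with TWSG1. The 6 points fall into 2 stages, so these values mostly reflect the difference between the stages and are given as a description.

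In the separate table of 14993 long noncoding transcripts, 0 were named for any of the 9 genes. For the pathway lists 17 were, and 13 of them were tested. By limma 2 of these had an adjusted p under 0.05 and were lower in DM, beside 2.64% of all transcripts tested. An intronic transcript of IL2RA, 1884 bases long, had 0.702, 0.750 and 0.474 FPKM in DM libraries, against 2.27, 2.34 and 1.82 FPKM in GM libraries, and fell at a log2 change of -0.94 (adjusted p = 0.0278). The other was a transcript of 7665 bases that shares splice junctions with IL6, and its values were equal to those of the IL6 gene row in all 6 libraries. It therefore adds no second measurement, and the IL6 gene row holds no value apart from that of this transcript. An intronic transcript within the PTRF locus had 3.55, 2.63 and 3.12 FPKM in DM libraries, against 5.15, 3.99 and 4.68 FPKM in GM libraries, and did not pass (adjusted p = 0.139). Transcripts without a gene name lay, by locus number, between OSMR and LIFR and between LOC106047991 and PTRF;STAT3. Of these, MSTRG.27037.1, of the second interval, averaged 14.3 FPKM in DM and 22.5 FPKM in GM, without overlap. It did not pass (adjusted p = 0.0701 by limma), and neither did the others.

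The cells were labelled as myoblasts, and markers of several cell types were read beside the genes above. Over 7 myoblast and myotube markers the summed level ranged over 669–688 FPKM in DM libraries and 847–950 FPKM in GM libraries, and 1 rose and 4 fell at an adjusted p under 0.05 by limma. ACTC1, a sarcomeric actin, made up most of this sum, with 575.7 FPKM in DM and 778.6 FPKM in GM. The myoblast transcription factors MYOD1, MYF5 and PAX7 were 2.40-, 10.5- and 3.56-fold lower in DM. The myosin heavy chain gene MYH15 was 2.27-fold higher and was the 1 marker of this list that rose. MYOG of the same list was lower in every DM library, averaging 19.1 FPKM in DM and 26.3 FPKM in GM. It did not pass the test (adjusted p = 0.0528 by limma), and TNNT2 overlapped between the stages. Over 8 fibroblast markers the summed level ranged over 4282–4552 FPKM in DM libraries and 2039–2079 FPKM in GM libraries, and 5 of the 7 tested rose and 0 fell. The matrix genes COL1A2, DCN, LUM and COL3A1 made up most of this sum, averaging 1618, 1004, 899 and 850 FPKM in DM. THY1 and FAP did not pass (adjusted p = 0.0947 and 0.564 by limma). TCF21 was below the filter and overlapped between the stages. OSMR was also higher in all DM libraries, and the part of fibroblasts in this was not tested. Over 5 blood and macrophage markers the sum ranged over 46.6–54.4 FPKM in DM libraries and 34.7–45.3 FPKM in GM libraries, with 0 that rose and 2 that fell, PTPRC and SPI1. Of the endothelial, smooth muscle, adipocyte, cartilage and neural lists, 1 gene in each fell and 0 rose, and MATN1 of cartilage was listed at 0. DES, CDH15 and MYMK were not found by name. In bulk RNA, fewer cells of a type and less RNA per cell cannot be told apart.

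Some pathway genes spread widely within a stage, in a share close to that of all genes. The highest library was at least 2 times the lowest within DM or within GM in 1 of the 7 genes and in 10 of the 59 pathway genes, beside 15.2% of all genes tested. IFNGR1, the ligand-binding chain of the interferon gamma receptor, had 35.6, 31.3 and 7.51 FPKM in DM libraries, against 10.6, 44.0 and 43.1 FPKM in GM libraries. CRLF3, an orphan cytokine receptor-like gene, had 23.8, 26.9 and 26.4 FPKM in DM libraries, against 20.3, 3.96 and 21.4 FPKM in GM libraries. The test passed neither of them, and no single library was low or high in all 10. CCND3 and CBLB were among the 10, although all their DM libraries lay below all their GM libraries. The cause of the spread was not tested.

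The FPKM of all genes summed to between 171956 and 189885 in DM libraries and between 173444 and 182078 in GM libraries, which overlapped. Between 12510 and 12538 genes had a value above 0 in DM libraries and between 12776 and 12882 in GM libraries. The median of these values was 3.82 to 3.94 FPKM in DM and 3.70 to 3.80 FPKM in GM. Neither of these last measures overlapped between the stages, and their part in the results was not tested.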

How the data were processed

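Reads trimmed with Cutadapt were assembled by the authors with StringTie, and their tables give deposited FPKM per gene and per long noncoding transcript, with 0.0001 in place of 0. FPKM hold no counts, so depth is unknown and no counting interval is given. The deposited columns of the authors' own comparison (ratio, p and q values, direction) stayed out of the work. The number of per-sample columns set aside was 0. The package limma 3.58.1 under R 4.3.3 fitted log2(FPKM + 1) (lmFit, eBayes with trend) in the 10381 genes and 12988 transcripts whose mean reached 0.5 FPKM, with Benjamini-Hochberg adjustment over all of them. Calls needed an adjusted p under 0.05 and a log2 fold change over 1. On simulated data with 200 genes changed 4-fold, 81% were recovered with 3 false calls. The members and lists were chosen with earlier results of these data known. The named genes were all 9 members, each pathway gene past both thresholds, the most abundant gene of each list and the 3 genes most like LIF and SOCS3; any further gene given with values was chosen after its values were seen. Alternatives were another pseudocount, other filters, other scalings, a replicate block and leaving out each library. The cultures came from 1 mixed pool, so p-values measure the spread between cultures only.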

Additional observations from a re-analysis of the deposited data

How the results depend on the processing

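Of 83 alternative values of the 7 genes, 79 stayed within 1 SD of the main value, 4 moved and 0 reversed. The other filters and the replicate block cannot change a gene's log2 difference. Their values equal the main value by construction, so this part of the 79 says nothing about stability. Leaving out 1 of 3 libraries always shifts a stage mean by less than 1 SD of that stage. The values with a library left out could therefore not have moved by this rule, and say nothing about stability either. Only the other pseudocount and the other scalings could have moved a value. The 4 came with a pseudocount of 0.1 in place of 1, at log2 differences of -3.04 for LIF, 0.76 for OSMR, -2.19 for SOCS3 and -1.38 for SOCS2, so that 3 rather than 2 of the 7 passed a log2 difference of 1. With that pseudocount 8 pathway genes, CISH and SOCS1 among them, were called lower and 1 higher, and 9 annotated genes lower and 3 higher. The share of all genes called is not given for that pseudocount or with a library left out. Those counts are therefore not read as results about the pathway. With no fold limit 15 pathway genes were lower and 4 higher, which is 25.4% and 6.78% of those tested. Of the annotated genes 18 were lower and 13 higher, which is 17.3% and 12.5%. The shares of all tested genes were 15.5% lower and 14.7% higher, near those of the annotated genes. The pathway lists were chosen with earlier results known, so their shares are a description. Among genes whose libraries spread under 2 times within each stage, a limit added after seeing the data, 1 pathway gene and 1 annotated gene were called lower. Leaving out 1 library gave 1 to 5 pathway genes called lower and 0 higher, and 1 to 5 annotated genes lower and 2 to 3 higher. The 5 came without DM replicate 1, which added SOCS4, CISH and CBLB to the pathway count. CCND3 lost its call without GM replicate 2 or 3, at adjusted p-values of 0.0522 and 0.0539 by limma, which left FOS alone in the pathway count. The annotated gene LOC106046136 lost its call without DM replicate 3 or GM replicate 2, and without GM replicate 2 LOC106048697 alone was called lower. Same-numbered libraries did not deviate together (r of 0.034, 0.021 and -0.0024). Libraries of other numbers had r between -0.064 and 0.048. With 3 libraries per stage from 1 pool, this cannot settle whether the numbers pair the cultures. With the number as a replicate block, 2 pathway genes were called lower and 0 higher, the same FOS and CCND3, at adjusted p-values of 0.0139 and 0.0321 by limma. Since 0 noncoding transcripts were named for the 9 genes, alternatives by name gave no value. For transcripts placed by locus number, no alternatives are given. With 3 libraries per stage and FPKM alone, low genes such as LIF in DM have an unknown counting error.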
